A study of Bos taurus with 15 samples.

Results

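The digestive hydrolase genes *LCT*, *ANPEP*, *ENPEP*, *DPP4*, *MEP1B*, *MEP1A*, *ALPI*, and *PEPD* were followed along the cattle intestine at the newborn (NB) and adult (AD) stages. They were chosen by symbol, and all 8 were found among the 27270 genes listed in every library. Their identifiers in the files are ENSBTAG00000015170 for *LCT*, ENSBTAG00000016881 for *ANPEP*, ENSBTAG00000008332 for *ENPEP*, ENSBTAG00000048246 for *DPP4*, ENSBTAG00000020391 for *MEP1B*, ENSBTAG00000004345 for *MEP1A*, ENSBTAG00000004519 for *ALPI*, and ENSBTAG00000031941 for *PEPD*.

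The single-cell RNA sequencing (scRNA-seq) data comprised 15 libraries of Holstein cattle, 11 NB and 4 AD, with 1 library per tissue and stage. The intestine was covered by 10 of them: NB duodenum, jejunum, ileum, cecum, colon, and rectum, and AD duodenum, jejunum, cecum, and colon. One lactating cow gave all 4 AD libraries. The NB tissues came from 3 calves, and which calf gave which library is not given in the sources used here. The labels name no treatment or genotype that distinguishes the groups, and the animals' ages were not used here. AD duodenum and cecum were dissociated with a lamina propria kit, and AD jejunum and colon with a multi tissue kit. NB intestine was treated with EDTA and trypsin before its kit. Stage, animal, and dissociation therefore cannot be told apart in any NB and AD comparison.

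Brush border hydrolases are anchored in the apical microvilli of enterocytes, where they finish the digestion of sugars, peptides, and phosphate esters next to the transporters that take up the products. Lactase, which splits milk sugar, is known in mammals for its high level in suckling young and for its restriction to the proximal small intestine. Prolidase, encoded by *PEPD*, is a cytosolic enzyme that splits dipeptides ending in proline, so it is grouped with the brush border by the digestion it completes and not by its place in the cell.

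Levels are a gene's UMIs (unique molecular identifiers, 1 per captured RNA molecule) scaled to a total of 1000000 (CPM), summed over the barcodes of a library with at least 1 UMI of *EPCAM*, which encodes an epithelial adhesion molecule. Such EPCAM barcodes numbered 10209 of 79820 kept barcodes in the 10 intestinal libraries. Ranges in parentheses are 95% intervals that cover counting error only, because no tissue and stage had a replicate library. No test between stages or tissues was therefore made. EPCAM barcodes numbered 634 to 3508 in the NB intestinal libraries and 202 to 685 in the AD ones, and their median depth was 8365 to 11942.5 UMIs in NB and 4301 to 6704 UMIs in AD.

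EPCAM barcodes carried more RNA of T cells and plasma cells in AD than in NB. *PTPRC*, the leukocyte gene for CD45, had a UMI in 3.59% to 29.3% of EPCAM barcodes in NB and in 40.3% to 73.3% in AD. The 9 genes of a leukocyte list all had UMIs in the EPCAM barcodes of each of the 10 libraries, with a summed level of 50.0 to 1357 CPM in NB and 5127 to 28189 CPM in AD. Most of the AD sum was *JCHAIN*, a plasma cell gene, at 3762 to 25781 CPM. The T cell gene *CD3E* was at 1.25 to 91.9 CPM in NB and 410 to 1126 CPM in AD, whereas the macrophage gene *CSF1R* was not higher in AD, with 5.73 to 100 CPM in NB and 0.848 to 36.8 CPM in AD. The B cell gene *CD79A* was at 203 CPM in NB ileum, above the 16 to 153 CPM of the AD libraries, and *MS4A1* was at 223 CPM there, within the 31.4 to 373 CPM of AD. The 5 stromal genes of a list summed to 30.0 to 3005 CPM in NB, highest in rectum and cecum, and to 0 to 231 CPM in AD. The 5 tuft cell genes found in the files summed to 1.25 to 15.3 CPM in NB and 65.1 to 376 CPM in AD. Most of the AD sum was *ALOX5*, at 38.8 to 215 CPM, and *AVIL*, at 20.7 to 143 CPM, while *DCLK1* was at 0 there. Whether this *ALOX5* RNA came from tuft cells or leukocytes was not tested. The part of leukocytes, stromal cells, and tuft cells in the results was not tested. AD duodenum had the fewest EPCAM barcodes of the 10 libraries, and 54 of them had no UMI of *PTPRC* or *COL1A2*, a collagen gene of stromal cells. The 11 enterocyte genes found in the files summed to 934 CPM there and to 48959 CPM in NB duodenum. Their sum was lowest in NB ileum, at 391 CPM, and its part in the NB ileum levels was not tested. In bulk sums of this kind, fewer enterocytes and less RNA per enterocyte cannot be told apart. Leaving out EPCAM barcodes with *PTPRC* or *COL1A2* did not take out all leukocyte RNA. In those left, the leukocyte list summed to 51095 CPM in AD duodenum and 9464 CPM in AD jejunum. Both sums were above those of all EPCAM barcodes, 28189 and 7658 CPM. In AD cecum and colon the list summed to 1881 and 3932 CPM, below 5127 and 5783 CPM. In NB it summed to 15.7 to 816 CPM.

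*LCT* encodes lactase. Its EPCAM level was 60.2 CPM (57.9 to 62.6; 2547 UMIs) in NB duodenum and 31.2 CPM (28.3 to 34.2; 435 UMIs) in NB jejunum. Not 1 UMI was found in NB ileum, cecum, colon, or rectum, where 3 UMIs would amount to 0.340, 0.426, 0.269, and 0.231 CPM. AD duodenum held 1 UMI, or 0.869 CPM (0.0220 to 4.84), and AD jejunum, cecum, and colon held 0. Lactase RNA was thus seen in quantity in NB duodenum and jejunum alone, and the NB duodenum interval lay above that of NB jejunum.

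The NB over AD ratio of *LCT* was 69.2 (12.4 to 2736) in duodenum, and in jejunum, where AD was counted at 3 UMIs to set a bound, NB was at least 28.5-fold higher. Without barcodes that held *PTPRC* or *COL1A2*, AD duodenum held 0 *LCT* UMIs and NB was at least 6.98-fold higher there. Resting on 1 AD UMI, the duodenal ratio was 27.5 (4.94 to 1088) per UMI of a list of brush border structure genes, 35.3 (6.31 to 1396) under 10% mitochondrial UMIs, and 106 (19.0 to 4186) with scaling factors from edgeR's TMM method. In AD duodenum 1 gene of the structure list, *EZR*, made up 316 of its 549 CPM, against 133 of 1380 CPM in NB duodenum. Every duodenal ratio on that scale depends on this gene, and the source of its RNA was not tested. With at least 2 UMIs of *FABP2* the 7 barcodes of AD duodenum were too few for a comparison. After thinning each barcode to 1000 UMIs, 5.15% (4.44 to 5.94) of EPCAM barcodes in NB duodenum had an *LCT* UMI, against 0.403% (0.0489 to 1.45) of *PTPRC* barcodes. These had *PTPRC* and no UMI of *EPCAM*, *COL1A2*, or the endothelial gene *PECAM1*, and their cells should lack lactase. Unthinned, the shares were 37.9% and 1.00% at median depths of 11942.5 and 8924 UMIs.

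Among EPCAM barcodes, *LCT* lay with *FABP2*, the fatty acid binding protein of enterocytes. Barcodes with *PTPRC* or *COL1A2* were not left out of this split, and 3220 of 3508 in NB duodenum and 972 of 1241 in NB jejunum had neither. The part of leukocytes and stromal cells in the barcodes without *FABP2* was not tested. In NB duodenum its level was 68.7 CPM in the 2694 EPCAM barcodes with at least 2 *FABP2* UMIs and 4.42 CPM in the 406 with none, and in NB jejunum 55.0 against 4.60 CPM. Barcodes of dividing cells held it too. Those with at least 2 UMIs of *MKI67*, a marker of cell division, held 47.7 CPM of *LCT* in NB duodenum and 20.4 CPM in NB jejunum, against 62.8 and 33.4 CPM in those with no *MKI67* UMI.

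*ANPEP* encodes aminopeptidase N, which removes neutral amino acids from the ends of peptides. Along the NB intestine its EPCAM level was 3.0 CPM (2.5 to 3.57) in duodenum, 136 CPM (130 to 142) in jejunum, 50.6 CPM (46.0 to 55.5) in ileum, 59.9 CPM (54.3 to 65.9) in cecum, 41.4 CPM (37.7 to 45.3) in colon, and 126 CPM (120 to 132) in rectum. In AD it was 0 in duodenum, where 3 UMIs would be 2.61 CPM, 759 CPM (727 to 792) in jejunum, 4.07 CPM (2.61 to 6.05) in cecum, and 19.3 CPM (15 to 24.4) in colon. AD jejunum was far above every other library, NB jejunum and rectum could not be separated, and NB duodenum was low although its enterocyte genes were the highest of the 10 libraries.

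The *ANPEP* difference between stages changed direction along the gut. AD was 5.60-fold (5.26 to 5.96) higher in jejunum, while NB was 14.7-fold (9.76 to 23.2) higher in cecum and 2.14-fold (1.66 to 2.80) higher in colon. In cecum the NB over AD ratio was 5.33 (3.45 to 8.66) with a limit of 10% in place of 40% mitochondrial UMIs and 22.6 (12.4 to 46.0) without *PTPRC* and *COL1A2* barcodes. In colon it was 3.19 (2.47 to 4.17) per brush border structure UMI, 1.59 (1.19 to 2.17) without *PTPRC* and *COL1A2* barcodes, and 1.02 (0.861 to 1.22) without the upper limit on genes per barcode. The AD jejunum value came from a minority of barcodes. Of its 2086 *ANPEP* UMIs, 43.0% lay in 10 of 320 barcodes, and 120 barcodes had any. This was not particular to AD jejunum. The 10 highest barcodes held 41.9% of the 422 *ANPEP* UMIs in NB cecum and 44.4% of the 462 in NB colon. In AD colon they held 58.0%, but there only 69 UMIs lay in 34 barcodes, which sets a high minimum for this share. In the other NB libraries they held 13.6% to 22.8%. Thinned, 20.9% (16.5 to 25.8) of EPCAM barcodes in AD jejunum had an *ANPEP* UMI, against 1.62% (1.32 to 1.97) of *PTPRC* barcodes. Unthinned, these shares were 37.5% and 6.75% at median depths of 6704 and 4373 UMIs.

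*ANPEP* was not restricted to epithelium. In *PTPRC* barcodes it was at 32.0 CPM in AD jejunum, 24.4 CPM in NB cecum, and 16.1 CPM in NB rectum. In NB duodenum the *PTPRC* class, at 10.7 CPM, exceeded the EPCAM barcodes free of *PTPRC* and *COL1A2*, at 2.74 CPM, and the ratio of epithelial to leukocyte level was 0.256 (0.180 to 0.367). In the other 5 NB libraries that ratio was 2.81 to 20.3, and in AD jejunum it was 31.5 (29.2 to 34.0).

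*ENPEP* encodes aminopeptidase A, which removes acidic residues and is known from pericytes and kidney as well as from the gut. Its EPCAM level was 25.9 CPM (23.3 to 28.7) in NB jejunum, 2.46 CPM (2.01 to 2.98) in NB duodenum, 1.25 CPM (0.622 to 2.23) in NB ileum, 0.426 CPM (3 UMIs) in NB cecum, 0.179 CPM (2 UMIs) in NB colon, and 0.617 CPM (8 UMIs) in NB rectum. In AD it was 69.1 CPM (59.7 to 79.7) in jejunum, 1.19 CPM (7 UMIs) in cecum, 1.12 CPM (4 UMIs) in colon, and 0 UMIs in duodenum. The gene was thus highest in jejunum at both stages at this mitochondrial limit, and from NB duodenum downward no neighboring levels in the order were separated by their intervals.

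AD jejunum was 2.67-fold (2.23 to 3.20) above NB jejunum for *ENPEP*. With TMM factors, the NB over AD ratio was 0.494 (0.413 to 0.592) and no longer wholly past 2-fold. The direction depended on barcodes rich in mitochondrial RNA: with a limit of 10% in place of 40% mitochondrial UMIs, 2 UMIs remained in AD jejunum and the NB over AD ratio was 5.69 (1.5 to 48.1). The AD order was lost as well, with 1.19 CPM (0.144 to 4.31) in jejunum, 2.34 CPM (0.859 to 5.09) in cecum, and 2.04 CPM (0.557 to 5.23) in colon. In NB duodenum most of the *ENPEP* UMIs in EPCAM barcodes were accompanied by stromal or leukocyte genes. Of 104 UMIs, 21 were left in barcodes without *PTPRC* and *COL1A2*, a level of 0.532 CPM. Barcodes with *COL1A2* alone held 240 CPM of *ENPEP* in NB duodenum, 89.3 CPM in NB jejunum, 55.2 CPM in NB ileum, and 20.7 CPM in NB colon.

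*DPP4* encodes dipeptidyl peptidase 4, which cuts after proline or alanine and is also the lymphocyte antigen CD26. In NB its EPCAM level was 15 CPM (13.9 to 16.2) in duodenum, 20.8 CPM (18.5 to 23.3) in jejunum, 2.60 CPM (1.65 to 3.91) in ileum, 1.56 CPM (0.780 to 2.80) in cecum, 6.09 CPM (4.73 to 7.72) in colon, and 3.78 CPM (2.80 to 5.00) in rectum. In AD it was 2.61 CPM (0.538 to 7.62; 3 UMIs) in duodenum, 17.1 CPM (12.6 to 22.7) in jejunum, 0.678 CPM (0.185 to 1.74) in cecum, and 2.52 CPM (1.15 to 4.78) in colon. NB duodenum, NB jejunum, and AD jejunum stood above the other 7 libraries at the limit of 40% mitochondrial UMIs, and the 2 jejunal intervals overlapped. With a limit of 10% the order was lost, with 0.596 CPM in AD jejunum and 4.64 CPM in NB jejunum against 5.99 CPM in NB colon.

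No *DPP4* ratio between stages lay wholly past 2-fold in the barcodes and totals used throughout. It was 5.76 (1.96 to 28.0) in duodenum, 1.21 (0.890 to 1.69) in jejunum, 2.30 (0.683 to 9.92) in cecum, and 2.42 (1.2 to 5.51) in colon. The duodenal ratio depended on the scaling and the barcodes. Its interval passed 2-fold with TMM factors, at 8.82 (3.0 to 42.9), and with a total that leaves out the most abundant genes, at 6.52 (2.22 to 31.7). It included 1 per brush border structure UMI, at 2.29 (0.780 to 11.1), under 10% mitochondrial UMIs, at 2.86 (0.959 to 14.0), with at least 2 *EPCAM* UMIs, at 4.94 (0.883 to 195), and without *PTPRC* and *COL1A2* barcodes, at 5.12 (0.916 to 203), and the ratio was 3.58 (1.53 to 11.0) without the upper gene limit. The jejunal direction was not stable, with 0.663 (0.542 to 0.816) without the upper gene limit and 7.79 (1.32 to 315) under 10% mitochondrial UMIs, and in colon the ratio was 1.32 (0.556 to 3.79) without *PTPRC* and *COL1A2* barcodes. Leukocyte barcodes carried the gene too, and in 3 libraries more of it than EPCAM barcodes without *PTPRC* and *COL1A2*. The ratio of EPCAM barcodes without *PTPRC* and *COL1A2* to *PTPRC* barcodes was 5.68 (3.23 to 11.0) in NB duodenum, 10.6 (7.26 to 15.9) in NB jejunum, and 4.06 (2.78 to 5.80) in AD jejunum, but 0.201 (0.140 to 0.282) in NB colon, 0.0757 (0.00911 to 0.277) in AD cecum, and 0.146 (0.00369 to 0.817) in AD duodenum. In the other 4 libraries its interval included 1. The EPCAM side of this ratio held 41 *DPP4* UMIs in NB colon, but 2 in AD cecum and 1 in AD duodenum. Those AD duodenum barcodes also held 51095 CPM of the leukocyte list, so they are not a clean epithelial reference. *PTPRC* barcodes held 21.2 CPM of *DPP4* in NB colon and 20.3 CPM in AD duodenum.

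*MEP1B* encodes the beta subunit of meprin, a metalloprotease of the brush border. In NB its EPCAM level was 35.8 CPM (34.0 to 37.6) in duodenum, 35.8 CPM (32.8 to 39.1) in jejunum, 13.4 CPM (11.1 to 16) in ileum, 2.41 CPM (1.41 to 3.87) in cecum, 2.78 CPM (1.89 to 3.94) in colon, and 3.01 CPM (2.14 to 4.11) in rectum. In AD it was 18.3 CPM (11.3 to 27.9) in duodenum, 64.8 CPM (55.6 to 75.0) in jejunum, 10.5 CPM (8.06 to 13.5) in cecum, and 4.76 CPM (2.77 to 7.62) in colon. At both stages every small intestinal library was above every large intestinal one, although the intervals of AD duodenum and cecum overlapped and their order turned under 10% mitochondrial UMIs, to 5.13 and 6.63 CPM. The 3 NB large intestinal libraries could not be separated.

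Little *MEP1B* was found outside epithelial barcodes. Its level in *PTPRC* barcodes was 0 to 0.668 CPM over the 10 libraries, and in barcodes with *COL1A2* alone it was 0 to 0.864 CPM over the 7 libraries with at least 20 of them. The NB over AD ratio was 1.96 (1.28 to 3.18) in duodenum, 0.553 (0.465 to 0.660) in jejunum, 0.230 (0.126 to 0.398) in cecum, and 0.583 (0.313 to 1.12) in colon. AD was thus 4.35-fold (2.51 to 7.94) higher in cecum. That interval no longer passed 2-fold with at least 2 *EPCAM* UMIs, where the NB over AD ratio was 0.313 (0.168 to 0.553), or under 10% mitochondrial UMIs, where it was 0.300 (0.127 to 0.679). In colon the ratio was 0.361 (0.191 to 0.709) without *PTPRC* and *COL1A2* barcodes, 0.285 (0.168 to 0.493) without the upper gene limit, and 2.87 (0.708 to 25.1) under 10% mitochondrial UMIs, so its direction was not settled. In jejunum it was 0.329 (0.246 to 0.443), past 2-fold, under 10% mitochondrial UMIs. The AD duodenum level rested on 21 UMIs in 10 barcodes. In the 54 barcodes without *PTPRC* and *COL1A2* it was 59.2 CPM, and the duodenal ratio was 0.623 (0.402 to 1.02), on the other side of 1. It was 0.607 (0.392 to 0.997) with at least 2 *EPCAM* UMIs and 7.11 (3.03 to 22.0) under 10% mitochondrial UMIs, so the duodenal direction was not settled.

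*MEP1A*, the alpha subunit of meprin, had 5 UMIs in NB jejunum, 1 UMI in NB duodenum, and 0 in the other 8 intestinal libraries. *ALPI*, the intestinal alkaline phosphatase, which removes phosphate from lipopolysaccharide and nucleotides, had 1 UMI in NB duodenum and 0 elsewhere. For NB duodenum, the deepest of these sums with 42311531 UMIs, 3 UMIs amount to 0.0709 CPM. Neither gene had enough UMIs to be compared between tissues or stages, and the reason for its low counts was not tested.

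*PEPD* encodes prolidase. In NB its EPCAM level was 324 CPM (319 to 330) in duodenum, 323 CPM (314 to 333) in jejunum, 138 CPM (130 to 146) in ileum, 107 CPM (99.6 to 115) in cecum, 166 CPM (158 to 173) in colon, and 134 CPM (128 to 141) in rectum. In AD it was 16.5 CPM (9.94 to 25.8) in duodenum, 36.8 CPM (29.9 to 44.7) in jejunum, 16.8 CPM (13.6 to 20.4) in cecum, and 24.1 CPM (19.3 to 29.7) in colon. All 6 NB libraries were above all 4 AD libraries, and the groups did not overlap.

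*PEPD* was the only one of the 8 genes whose NB over AD ratio lay wholly above 2 in all 4 tissues. Of all genes compared, 8.12% did so in duodenum, 6.67% in jejunum, 11.0% in cecum, and 3.80% in colon. The share that did so in all 4 tissues was not counted. The *PEPD* ratio was 19.6 (12.6 to 32.6) in duodenum, 8.80 (7.22 to 10.8) in jejunum, 6.38 (5.17 to 7.95) in cecum, and 6.88 (5.54 to 8.65) in colon. Without *PTPRC* and *COL1A2* barcodes it was 11.3 (6.14 to 23.5) in duodenum, and under the barcode filters, scalings, and marker selection tried it was at least 5.81 in every tissue. Per brush border structure UMI it was 7.81 (5.00 to 13.0) in duodenum, where the *EZR* limit given for *LCT* applies. In barcodes with at least 2 *FABP2* UMIs it was 9.66 (7.05 to 13.6) in jejunum and 12.6 (8.51 to 19.4) in colon.

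*PEPD* RNA was not confined to epithelium, and the stage difference was also present, at a smaller size, in leukocyte barcodes. There the NB over AD ratio of *PEPD* was 4.03 (3.55 to 4.57) in duodenum, 1.79 (1.68 to 1.92) in jejunum, 3.89 (3.46 to 4.39) in cecum, and 2.11 (1.84 to 2.40) in colon. In each of the 6 NB libraries, EPCAM barcodes free of *PTPRC* and *COL1A2* held more *PEPD* than *PTPRC* barcodes, 2.21-fold in cecum to 6.17-fold in ileum. In AD the same ratio was 1.32 (0.630 to 2.44) in duodenum, 0.589 (0.454 to 0.753) in jejunum, 1.2 (0.910 to 1.55) in cecum, and 1.14 (0.804 to 1.57) in colon. The interval of this ratio thus lay above 1 in 6 of 6 NB libraries, below 1 in AD jejunum, and across 1 in the other 3 AD libraries.

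**Figure D1:**
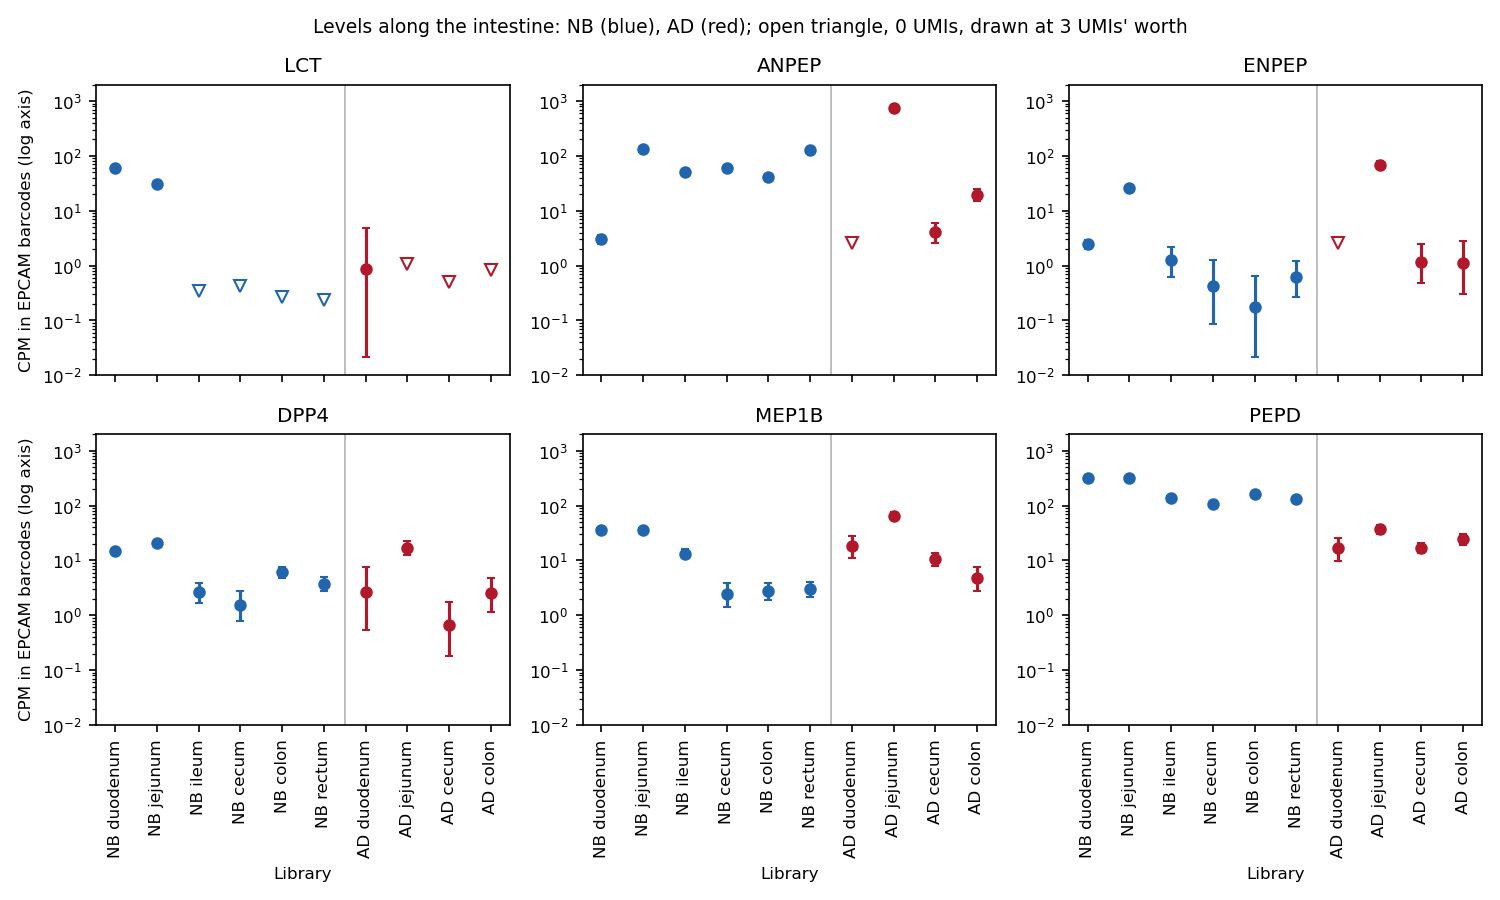
CPM of the 6 hydrolases with over 5 UMIs in a library (log axis) in EPCAM barcodes of the 10 intestinal libraries, NB in blue and AD in red, with 95% counting intervals; an open triangle marks 0 UMIs and stands at the level that 3 UMIs would give. *LCT* is present in NB duodenum and jejunum, *ANPEP* and *ENPEP* are highest in AD jejunum, and *PEPD* is higher in every NB than in every AD library.

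**Figure D2:**
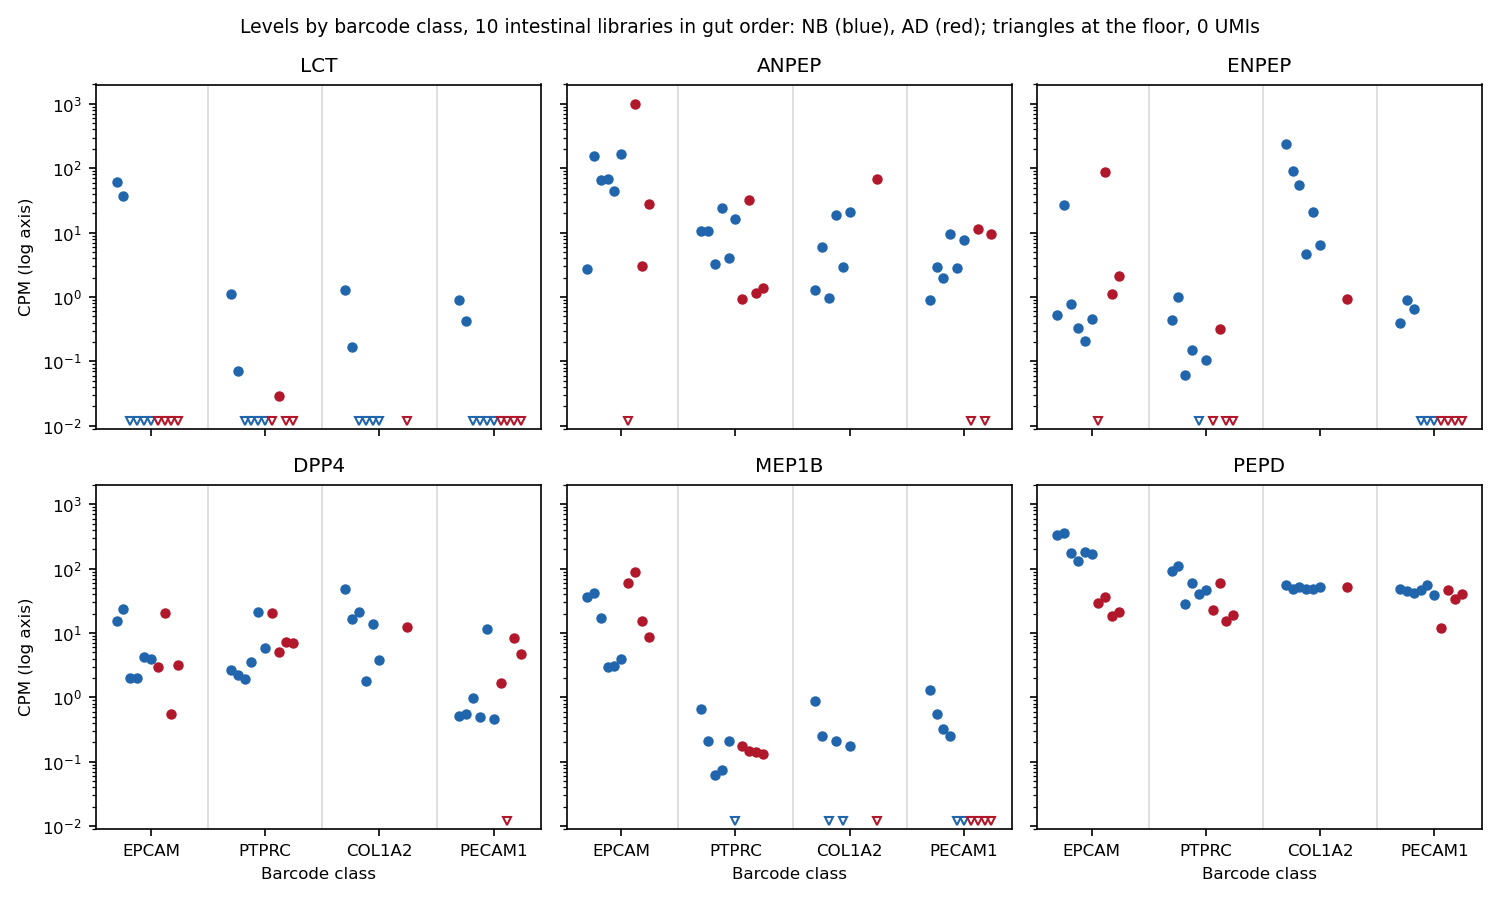
CPM of the same genes (log axis) by barcode class, each point 1 library in gut order, NB in blue and AD in red: EPCAM without *PTPRC* or *COL1A2*, and barcodes with *PTPRC*, *COL1A2*, or *PECAM1* alone of these 4 genes; triangles at the bottom mark 0 UMIs, and classes under 20 barcodes are left out. *LCT* and *MEP1B* are far higher in the EPCAM class than in the others, whereas *ENPEP* is highest in NB *COL1A2* barcodes and *DPP4* and *PEPD* occur in all classes.

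In the jejunum, where *ANPEP*, *ENPEP*, *DPP4*, *MEP1B*, and *PEPD* were all found at over 15 CPM at both stages, their levels were higher in barcodes with *FABP2*. In NB jejunum, the 565 EPCAM barcodes with at least 2 *FABP2* UMIs held 235 CPM of *ANPEP*, 45.3 CPM of *ENPEP*, 38.1 CPM of *DPP4*, 56.8 CPM of *MEP1B*, and 485 CPM of *PEPD*. The 501 barcodes with no *FABP2* UMI held 23.0, 6.36, 2.19, 8.99, and 131 CPM of the same genes. In AD jejunum, 49 barcodes with *FABP2* held 2393 CPM of *ANPEP*, 242 CPM of *ENPEP*, and 59.2 CPM of *DPP4*, and 261 without it held 106, 1.07, and 0.537 CPM. *MEP1B* and *PEPD* were less divided there, with 112 and 50.2 CPM in the former and 43.0 and 31.2 CPM in the latter, and the intervals of *PEPD* overlapped. These splits took all EPCAM barcodes, of which 972 of 1241 in NB jejunum and 190 of 320 in AD jejunum had no *PTPRC* or *COL1A2* UMI. The part of leukocytes and stromal cells in the barcodes without *FABP2* was not tested.

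Taking only barcodes with *FABP2* made the jejunal differences of both aminopeptidases larger. *ANPEP* was then 10.2-fold higher in AD, with an NB over AD ratio of 0.0981 (0.0918 to 0.105), and *ENPEP* 5.34-fold higher, with a ratio of 0.187 (0.156 to 0.225). *LCT* remained at 0 UMIs in AD, and NB was at least 14.3-fold higher. The ratio of *DPP4* was 0.643 (0.469 to 0.898) and that of *MEP1B* 0.507 (0.402 to 0.647), neither wholly past 2-fold.

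In jejunum most members were higher in barcodes that held another member. In AD jejunum, the 22 EPCAM barcodes with a *DPP4* UMI held 2995 CPM of *ANPEP* and 393 CPM of *ENPEP*, against 376 and 13.6 CPM in the 298 without. All 47 *DPP4* UMIs of AD jejunum lay in the 120 barcodes with *ANPEP*. In NB jejunum, the 146 barcodes with *ENPEP* held 604 CPM of *ANPEP*, 99.6 CPM of *DPP4*, and 104 CPM of *LCT*, against 70.3, 9.80, and 21.1 CPM in the 1095 without. *MEP1B* was an exception in AD jejunum, with 72.1 CPM (48.3 to 104) with *DPP4* and 63.5 CPM (53.7 to 74.6) without, and with 75.7 CPM (53.6 to 104) with *ENPEP* and 62.3 CPM (52.4 to 73.6) without. NB duodenum differed too. There the 1330 barcodes with *LCT* held 23.3 CPM of *DPP4* against 7.61 CPM in the others, but 2.20 CPM of *ANPEP* against 3.72 CPM and 0.450 CPM of *ENPEP* against 4.25 CPM. Deeper barcodes have more chances to show a UMI of any gene, and the part of depth was not tested.

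**Figure D3:**
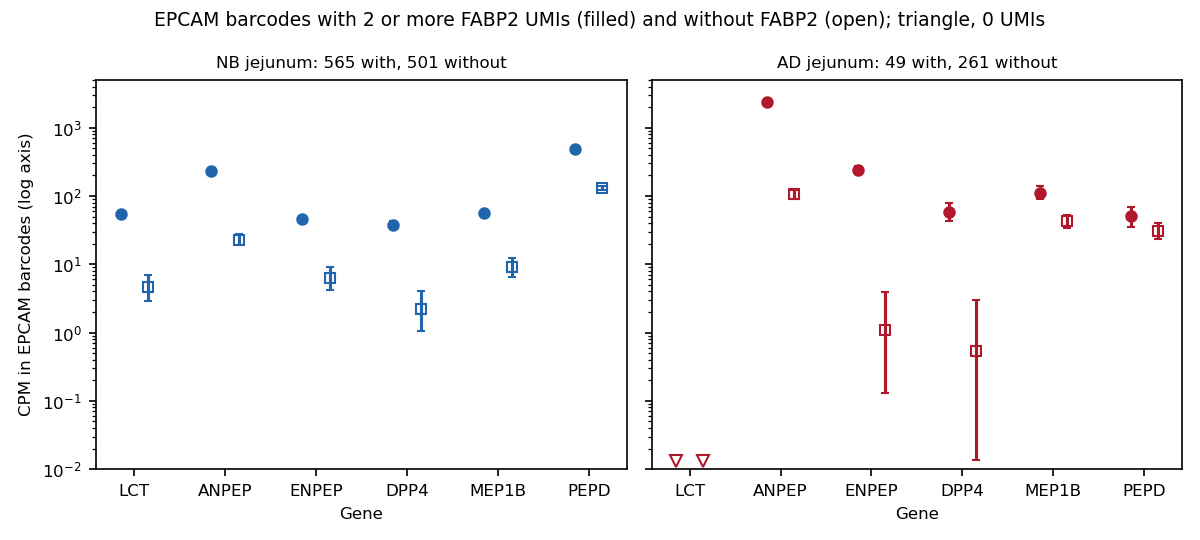
CPM (log axis) in EPCAM barcodes of NB jejunum (left) and AD jejunum (right), split into those with at least 2 *FABP2* UMIs (filled) and with none (open), with 95% counting intervals; triangles mark 0 UMIs. In NB all 6 genes are higher with *FABP2*, and in AD *LCT* is at 0 in both and the gap is widest for *ANPEP*, *ENPEP*, and *DPP4*.

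Mitochondrial share moved with many of the levels, and its part in them was not tested. In AD jejunum, the 103 EPCAM barcodes with 10% to 40% mitochondrial UMIs held 1663 CPM of *ANPEP*, 176 CPM of *ENPEP*, and 43.0 CPM of *DPP4*, against 182, 1.19, and 0.596 CPM in the 217 barcodes under 10%. In NB jejunum the corresponding levels were 269, 54.7, and 45.2 CPM in 485 barcodes and 47.4, 6.78, and 4.64 CPM in 756. *LCT* in NB duodenum was 76.6 CPM in the former class and 36.2 CPM in the latter. *ANPEP* was higher in the former class in 7 of the 10 libraries, among them NB rectum with 211 against 62.6 CPM, NB colon with 81.1 against 24.6 CPM, and AD colon with 30.3 against 10.2 CPM. It was lower in AD cecum, with 0.600 against 8.58 CPM, and in NB duodenum, with 2.35 against 3.96 CPM, and was at 0 in AD duodenum. *MEP1B* was at 35.3 and 36.5 CPM in NB duodenum but at 91.4 and 5.13 CPM in AD duodenum. *ANPEP* remained higher in AD jejunum in the class under 10%, where the NB over AD ratio was 0.260 (0.223 to 0.302).

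Between stages, ratio intervals lay wholly past 2-fold for 2 of the 6 members that passed the minimum of 20 UMIs in duodenum, 4 of 6 in jejunum, 3 of 3 in cecum, and 1 of 4 in colon. In duodenum, *LCT* and *PEPD* were higher in NB, as were 8.12% of the 12953 genes with at least 20 UMIs over both libraries, and none of the 8 was higher in AD, as were 14.7%. *ANPEP* and *ENPEP* passed there on 127 and 104 NB UMIs against 0 in AD, with lower ratio bounds of 0.922 and 0.753. With EPCAM sums of 42311531 UMIs in NB and 1150282 in AD, they could not be called higher in NB. The genes behind the 8.12% were under the same limit. In jejunum, *LCT* and *PEPD* were higher in NB (background 6.67%) and *ANPEP* and *ENPEP* in AD (9.66%). In cecum, *ANPEP* and *PEPD* were higher in NB (11.0%) and *MEP1B* in AD (5.93%). In colon, *PEPD* was higher in NB (3.80%) and none in AD (13.6%). The other members had under 20 UMIs over both libraries and were not compared.

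**Figure D4:**
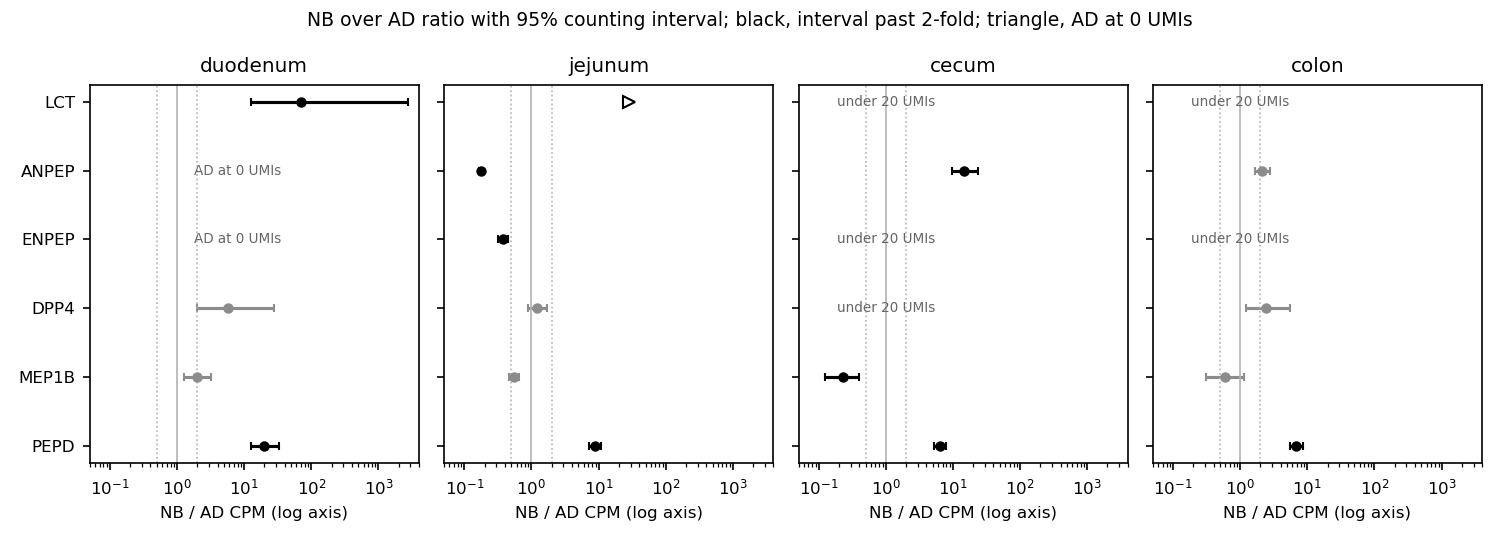
NB over AD ratio of CPM (log axis) for 6 hydrolases in 4 tissues with 95% counting intervals. Black marks intervals wholly above 2 or below 1/2 (dotted lines), gray the others, and the triangle a lower bound where AD held 0 UMIs. Genes with under 20 UMIs are marked in words without a point. So are *ANPEP* and *ENPEP* in duodenum, where AD held 0 UMIs and the bounds, 1.15 and 0.942, were under 2. *PEPD* lies to the right in all tissues, *LCT* in duodenum and jejunum, and *ANPEP* on opposite sides in jejunum and cecum.

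Between small and large intestine of NB, *ENPEP* and *MEP1B* were higher in each of the 3 small intestinal libraries than in each of the 3 large intestinal ones, 2 of 8 genes, and none was higher in all large intestinal libraries. Over the 7309 genes with a mean of at least 10 CPM, the shares were 10.3% and 9.77%. Of the 8 genes, 4 passed that minimum: *LCT*, *ANPEP*, *PEPD*, and *MEP1B*. The counting intervals of *ENPEP* in NB ileum and rectum overlapped. This count was decided by NB ileum, the library with the lowest sum of enterocyte genes (391 CPM). Without it, 6 genes (*LCT*, *DPP4*, *ENPEP*, *PEPD*, *MEP1A*, and *MEP1B*) were higher in NB duodenum and jejunum than in all 3 large intestinal libraries, where the share of all genes was 20.2%. Of these 6, *LCT*, *PEPD*, and *MEP1B* reached the mean of 10 CPM behind that share, and *MEP1A* was counted on 1 and 5 UMIs against 0, too few for a comparison.

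In AD, *DPP4* and *MEP1B* were higher in both small intestinal libraries than in both large intestinal ones (background 20.6%), and none was higher in the large intestine (13.9%). *ANPEP*, *ENPEP*, *PEPD*, and *MEP1B* reached the mean of 10 CPM in AD, so 1 of these 4 was counted and *DPP4* lay below the minimum. The *DPP4* count rested on 3 UMIs in AD duodenum, at 2.61 CPM, just above AD colon, at 2.52 CPM. Without AD duodenum, 5 genes (*ANPEP*, *ENPEP*, *DPP4*, *MEP1B*, and *PEPD*) were higher in jejunum than in cecum and colon (background 41.1%). Without AD jejunum, *LCT*, *DPP4*, and *MEP1B* were higher in duodenum (45.0%), and *ANPEP*, *ENPEP*, and *PEPD* in the large intestine (35.8%). Of these, *PEPD* and *MEP1B* reached the minimum. *LCT* rested there on 1 UMI, and *PEPD* on 16.5 CPM in duodenum against 16.8 CPM in cecum, with overlapping intervals.

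Other brush border hydrolases, 16 of a list of 17 that were found in the files, showed both kinds of pattern. Of those that passed the minimum of UMIs, 4 of 12 were higher in NB and 1 in AD in duodenum, 1 of 14 and 6 in jejunum, 2 of 8 and 4 in cecum, and 3 of 8 and 2 in colon. Over all genes the shares were 8.12% and 14.7%, 6.67% and 9.66%, 11.0% and 5.93%, and 3.80% and 13.6% in the same order. The median log2 ratio of NB over AD for those that passed was 0.85, −0.21, −0.43, and −0.01 in the 4 tissues, beside −0.09, −0.16, −0.09, and −0.25 over all genes tested. *TREH*, which encodes trehalase, followed *LCT* in NB with 47.3 CPM in duodenum, 36.2 CPM in jejunum, 3.74 CPM in ileum, and at most 0.0895 CPM in the large intestine, but it kept 14.6 CPM in AD jejunum. *SI*, the sucrase-isomaltase gene, was at 25.1 CPM in NB duodenum and 17.8 CPM in NB jejunum, and at 45.9 CPM in AD jejunum. *MME*, the gene of neprilysin, was at 27.7 CPM in NB jejunum and 127 CPM in AD jejunum. *DPEP1*, which encodes a membrane dipeptidase, was highest in AD cecum at 281 CPM, beside 62.6 CPM in NB cecum.

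**Figure D5:**
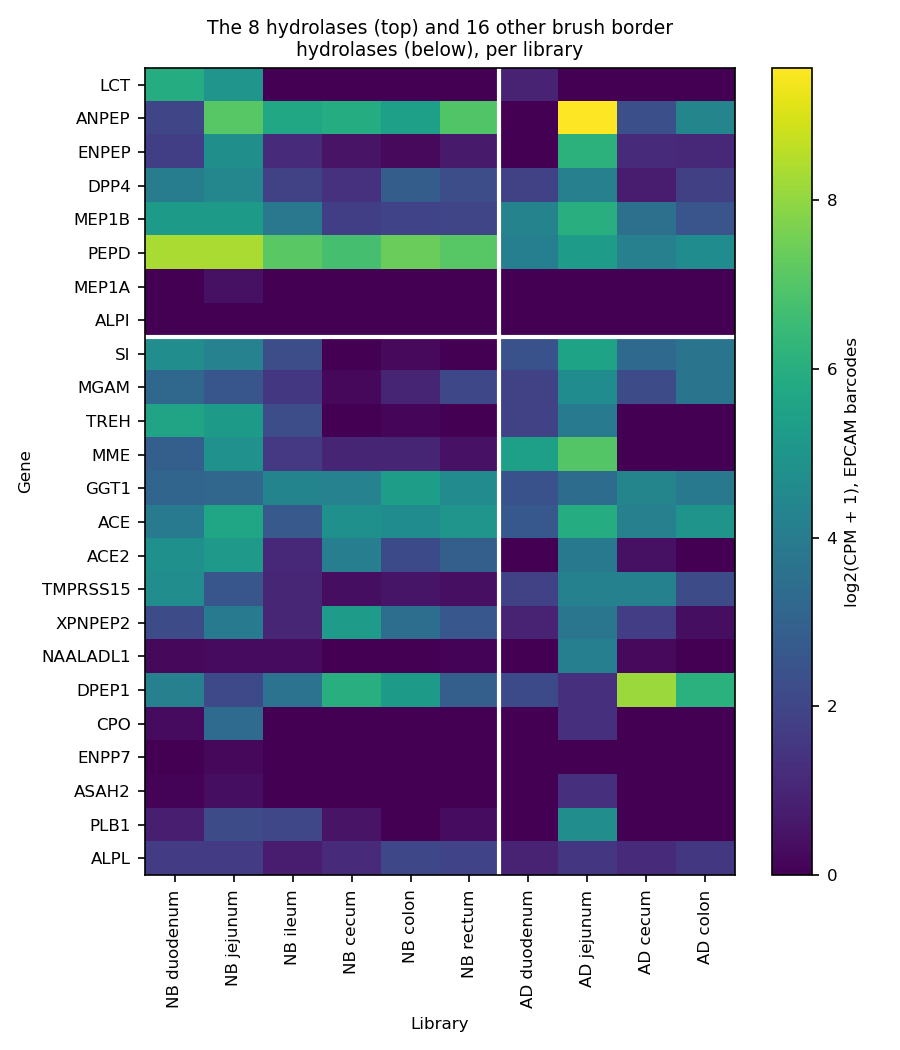
Heat map of log2(CPM + 1) in EPCAM barcodes for the 8 hydrolases (above the white line) and 16 other brush border hydrolases (below), with NB libraries left and AD libraries right of the vertical line. *LCT* is bright in NB duodenum and jejunum, *MME*, *PLB1*, *ANPEP*, and *ENPEP* in AD jejunum, and *DPEP1* in AD cecum.

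*PEPD* was higher in NB in all 4 tissues, which none of 8 other soluble peptidases was. Of these 8 cytosolic and lysosomal peptidases (*LAP3*, *CNDP2*, *XPNPEP1*, *DPP3*, *DPP7*, *TPP1*, *NPEPPS*, and *RNPEP*), all of which passed the minimum of UMIs, 2 were higher in NB in duodenum, beside 8.12% of all genes, and none in jejunum, cecum, or colon, beside 6.67%, 11.0%, and 3.80%. In AD, 1 was higher in colon, beside 13.6%. Their median log2 ratios were 0.74, −0.29, 0.12, and −0.26 in duodenum, jejunum, cecum, and colon. *CNDP2*, a dipeptidase, was at 183 CPM in NB jejunum and 240 CPM in AD jejunum.

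Transporters that take up the products included one with the pattern of lactase. *SLC2A2*, the basolateral glucose transporter GLUT2, was at 43.2 CPM in NB duodenum and 29.4 CPM in NB jejunum, at no more than 0.269 CPM in the other NB libraries, and at 0 UMIs in all 4 AD libraries. *SLC15A1*, the peptide transporter PEPT1, was at 66.7, 123, and 7.70 CPM in NB duodenum, jejunum, and ileum and at 55.7 CPM in AD jejunum. Of the transporters that passed the minimum of UMIs, 3 of 7 were higher in NB in duodenum, 2 of 7 in jejunum, 0 of 4 in cecum, and 1 of 4 in colon, beside 8.12%, 6.67%, 11.0%, and 3.80% of all genes. In AD, 1 of 7 was higher in jejunum, beside 9.66% of all genes, and none in the other tissues. Of the 11 brush border structure genes, among them *VIL1* (villin), 9 were higher in NB and 1 in AD in duodenum, 1 was higher in NB in jejunum, none passed 2-fold in cecum, and 1 was higher in AD in colon. Over all genes, the shares higher in NB were those just given. The shares higher in AD were 14.7% in duodenum, 9.66% in jejunum, 5.93% in cecum, and 13.6% in colon.

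Of the transcription factors of enterocytes that passed, 2 of 12 were higher in NB and 1 in AD in duodenum, beside 8.12% and 14.7% of all genes, and in AD 1 of 11 was higher in jejunum, 1 of 9 in cecum, and 1 of 9 in colon, beside 9.66%, 5.93%, and 13.6% of all genes. *GATA4*, a factor of the proximal small intestine, followed the position of *LCT* but not its stage. It was at 67.2 CPM in NB duodenum and 36.8 CPM in NB jejunum, 0 in NB ileum, and at most 0.0895 CPM in the NB large intestine. In AD it was at 26.9 CPM in duodenum and 64.4 CPM in jejunum and at 0 in cecum and colon. AD jejunum thus held *GATA4* with 0 UMIs of *LCT*. *HNF4G* was at 165 CPM in NB jejunum and 245 CPM in AD jejunum, and *CDX2* at 63.3 and 48.8 CPM.

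The genes most like each member over the 10 intestinal libraries were named by Pearson's r of log2(CPM + 5), among 7632 genes that reached 20 CPM in at least 1 library. All AD libraries came from 1 cow, and which calf gave which NB library is not given, so these values are descriptions. For *LCT* they were *SLC2A2* (r = 0.997), ENSBTAG00000012363 (0.996), and *NR0B2* (0.994). For *ANPEP* they were *GLB1* (0.881), *ARPIN* (0.855), and *OAZ2* (0.849), and for *ENPEP* they were *ABCG8* (0.968), *BBOX1* (0.956), and *AMOTL2* (0.930). For *DPP4* they were *PDZK1* (0.966), *C16H1orf115* (0.939), and *DECR2* (0.934). For *MEP1B* they were *CD82* (0.973), *SFT2D1* (0.969), and *TMEM86B* (0.969), and for *PEPD* they were *MRPL16* (0.985), *PRXL2B* (0.975), and *PSMC3* (0.973). With a pseudocount of 1 in place of 5 CPM, *GLB1*, *DECR2*, *BBOX1*, and *AMOTL2* were no longer among the 3 genes most like their member. Among the members themselves, the most alike were *ENPEP* and *MEP1B* (0.778), *DPP4* and *ENPEP* (0.774), and *DPP4* and *MEP1B* (0.754), and the least alike were *LCT* and *ANPEP* (−0.17).

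In NB reticulum, omasum, and abomasum, *LCT* had 2, 0, and 0 UMIs and *ANPEP* 1, 7, and 8 UMIs, although these sums held 49312837 to 72817779 UMIs. *PEPD* was at 14.1, 16.1, and 15.2 CPM there, below all 6 NB intestinal libraries. In NB liver, *ANPEP* was at 13.6 CPM (8.17 to 21.2), *DPP4* at 7.86 CPM (3.92 to 14.1), and *PEPD* at 49.3 CPM (38.4 to 62.4) in 231 EPCAM barcodes, and the barcodes with no *EPCAM* UMI held 122 CPM of *PEPD*. In NB salivary gland, with 73 EPCAM barcodes, *ANPEP* was at 18.5 CPM (8.89 to 34.1).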

How the data were processed

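The deposited values were raw UMI counts for each gene in each barcode. The authors had made them with Cell Ranger 3.1.0 on the ARS-UCD1.2 cattle genome, without normalization. Totals were 48674267 to 117505536 UMIs per intestinal library. No genome of that build was used here, so positions are not given.

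Barcodes were kept within the limits that the study states: 500 to 4000 genes, a total below 50000 UMIs, and less than 40% of UMIs from 13 mitochondrial genes. Doublets were scored with Scrublet in scanpy 1.11.5, and the top-scoring barcodes were taken out at a rate of 0.8% per 1000, which kept 119798 of 172405 barcodes. Any pair of the 15 libraries shared 2 to 36 barcode sequences, at most 0.483% of the smaller library. UMIs of EPCAM barcodes were summed and divided by the total. Intervals at the 95% level were exact Poisson for sums, exact binomial (Clopper-Pearson) for shares, and conditional binomial for ratios. They cover counting error only. Against 0 UMIs, 3 UMIs set the bound of a ratio. With 1 library per tissue and stage, no test was made, and genes were counted as higher when the interval of the ratio lay wholly past 2-fold. The 8 genes and all lists were chosen with earlier results of these data known. Named genes were the members, genes of the lists, and the 3 genes most like each member. *MUC2* had no row under its symbol, so *AGR2* replaced it for a goblet cell split. TMM factors came from edgeR 4.0.16 in R 4.3.3. Alternatives covered the barcodes taken, doublets, filters, scaling, thinning, pseudocounts, and single libraries left out.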

Additional observations from a re-analysis of the deposited data

Results flagged for a closer look

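The stage difference of *ANPEP* took opposite directions in 2 tissues: the NB over AD ratio was 0.179 (0.168 to 0.190) in jejunum and 14.7 (9.76 to 23.2) in cecum. The difference between the tissues was not tested, because each ratio rests on 1 library per stage. With a limit of 10% mitochondrial UMIs the ratios were 0.260 (0.223 to 0.302) and 5.33 (3.45 to 8.66). The AD cecum level rested on 24 UMIs, which lay in 6 of 685 EPCAM barcodes. Jejunum and cecum of the AD cow were dissociated with different kits, so tissue and kit cannot be told apart there. In *PTPRC* barcodes without *EPCAM*, the ratio was also below 1 in jejunum, at 0.336 (0.282 to 0.399), and above 1 in cecum, at 21.5 (14.9 to 31.9).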

How the results depend on the processing

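Of the recomputed counts of members, 119 stayed within 1.5 times the value reported and 13 did not. No paired analysis was possible because the labels give no replicate numbers. A fit that pairs the stages by tissue was not made, since tissues of 1 cow are not replicates of a stage. With a mitochondrial limit of 10%, the genes higher in NB small than large intestine were 1, in AD small than large 0, in AD large than small 1, and in AD over NB cecum 0, and the NB over AD ratio of *ENPEP* in jejunum turned to 5.69. With at least 2 *EPCAM* UMIs, the AD count in cecum was 0. Without the upper limit on genes, NB small above large was 1 and AD above NB in colon 1. With TMM factors, AD above NB in jejunum was 1 and NB above AD in colon 2, as it was per brush border structure UMI. Leaving out 1 library gave 2 to 6 genes higher in NB small intestine (6 without NB ileum), 2 to 5 in AD small intestine (5 without AD duodenum), and 0 to 3 in AD large intestine (3 without AD jejunum). The leave-one-out runs, the *AGR2* split, and the split by mitochondrial share were chosen after seeing the data. The cause of these changes was not tested, except that TMM factors, 0.817 to 0.95 in NB and 1.05 to 1.25 in AD, raise every NB over AD ratio. The *FABP2* selection gave values for jejunum and colon alone, since duodenum and cecum had under 20 such barcodes at a stage. Depth also limits the AD values: EPCAM sums held 1150282 to 5898351 UMIs in AD and 7041411 to 42311531 in NB. Of the recomputed levels, 551 stayed within their counting interval and 201 left it. Of the recomputed ratios, 116 stayed and 41 left it, among them *MEP1B* in duodenum, which went from 1.96 to 0.607 with at least 2 *EPCAM* UMIs, and 1 ratio past 2-fold turned direction, that of *ENPEP* in jejunum.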

Other observations

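The hydrolases were also present in barcodes with *AGR2*, a gene of the secretory lineage, in a split chosen after seeing the data. *PTPRC* had a UMI in 40.3% of EPCAM barcodes in AD jejunum, 27.6% in NB ileum, 18.7% in NB rectum, and 10.2% in NB jejunum. The part of leukocytes in the barcodes without *AGR2*, and of enterocytes in those with it, was not tested. In AD jejunum, 100 EPCAM barcodes with at least 2 *AGR2* UMIs held 1371 CPM of *ANPEP*, 131 CPM of *ENPEP*, and 106 CPM of *MEP1B*, against 81.3, 1.79, and 11.6 CPM in 196 barcodes with none. In NB ileum the *ANPEP* levels were 82.1 and 3.58 CPM and in NB rectum 170 and 37.2 CPM. In NB jejunum the order was the other way, with 104 CPM of *ANPEP* with *AGR2* and 185 CPM without.

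Barcodes of dividing cells held less *ANPEP* in the NB large intestine. With at least 2 *MKI67* UMIs its level was 10.8 CPM in cecum, 5.39 CPM in colon, and 11.3 CPM in rectum, against 67.6, 45.6, and 138 CPM with none. In NB duodenum, 263 dividing barcodes held 25 CPM of *MEP1B* against 38.0 CPM in those with no *MKI67* UMI.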
